A study of Homo sapiens with 6 samples.

Results

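The genes described here are those whose symbol is ZNF followed by digits and an optional letter, and which were expressed in the human neuroblastoma cell line IMR32. A symbol counted as expressed when at least 1 probe set assigned to it alone had a mean of log2 7 or more over the 6 arrays of the study. Of 466 such ZNF symbols on the array, 274 (58.8%) met this rule, 270 of them protein-coding genes and 4 transcribed pseudogenes. The level chose the members, so their intensities are given as a description. IMR32 is an established line with an amplified MYCN gene. Cells were exposed for 24 h to 118 µM teriflunomide, an inhibitor of the pyrimidine synthesis enzyme DHODH, or to 0.1% DMSO as the control, with 3 arrays per group labelled as biological replicates. The labels do not say whether the teriflunomide wells also held DMSO or whether each replicate was a culture of its own. The p-values therefore cover array-to-array spread alone, and that spread may be technical.

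Most ZNF genes encode transcription factors with tandem C2H2 fingers, small zinc-bound modules of which each reads a short stretch of DNA. Many also carry a KRAB domain, which recruits the corepressor TRIM28 and, through it, the histone methyltransferase SETDB1 and heterochromatin proteins; retroelements are a well-known target of this silencing. Others carry a SCAN domain, through which they dimerise, some of them together with KRAB, or have neither domain. A few genes of the same name series act on ribosomes, RNA or the spindle instead. The family grew by gene duplication and lies in clusters, many on chromosome 19, and its close relatives can share probes, so a probe set may report more than its named gene.

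The deposited values are log2 intensities per probe set, normalized by the authors, and the array's dim end was a common lowest value of 2.18. All 274 members stayed above log2 5 on every array, above that common floor. Still, ZNF382 repeated 1 exact value, 8.40, on every teriflunomide array and on DMSO replicates 2 and 3. A level above log2 5 may thus still be the lowest value that a probe set takes. Arrays correlated at a Pearson's r of 0.998 to 0.999 within the groups and 0.989 to 0.990 between them, across probe sets, which are not independent replicates. Neuroblastoma markers PHOX2A, GATA3, ISL1, MYCN and CHGA were bright (means of log2 10.25 to 15.11 in DMSO). PHOX2A changed by 0.76, GATA3 by 0.35, ISL1 by 0.22, MYCN by -0.43 and CHGA by -1.46. HAND2 stood at 6.96 and 6.92, with 1 exact value, 6.92, repeated on every teriflunomide array and on DMSO replicates 1 and 3. Whether HAND2 was expressed is therefore unclear. TH lay near the floor in both groups and DBH stood at 3.41 and 2.47. Of the 9 blood and endothelial markers, 8 had a probe set of their own and none of these exceeded log2 2.23. Of the 4 epithelial markers none passed the test, and the highest was KRT8 at 5.40 and 5.65. Of the 4 fibroblast markers, LUM and COL1A1 were bright and rose by 0.61 and 0.94, PDGFRB stood at 5.22 in both groups and COL1A2 lay near the floor. The summed level of those 4 was 29.44 to 29.86 in DMSO and 31.11 to 31.24 with teriflunomide, and their part in the ZNF results was not tested. The gap between the 3' and 5' control probe sets of ACTB, which widens as RNA or labelled target shortens, averaged 1.36 ± 0.032 (SD, log2) on the 3 DMSO arrays. On the 3 teriflunomide arrays it averaged 1.62 ± 0.07 (two-sided exact permutation p = 0.1, the smallest that 3 against 3 allows). The same gap for GAPDH was 0.049 ± 0.006 and 0.063 ± 0.021 and overlapped between the groups (two-sided exact permutation p = 0.4). The ACTB gap moved with treatment beside every result here, and its part in them was not tested.

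The comparison asked how expression of these genes differed between teriflunomide and DMSO. Of the 274 members, 99 (36.1%) were lower and 62 (22.6%) higher with teriflunomide at an adjusted p under 0.05 by limma, adjusted over all 11998 genes tested, and 113 did not pass. Over all genes tested, 28.9% were lower and 29.7% higher (58.6% either way). Among the 8809 genes with a mean of log2 7 or more, 32.9% were lower and 33.3% higher (66.2% either way). In bulk RNA, fewer cells and less RNA per cell cannot be told apart. The changes were mostly small. The median log2 fold change of the members was -0.057 beside 0.0015 over all genes tested, and the middle of the distribution ran from -0.36 to 0.17 (quartiles) beside -0.28 to 0.30. At least 2-fold, 6 members were higher and 6 lower (2.19% each way), beside 5.24% higher and 4.53% lower of all genes tested, and 4.42% and 3.68% of genes with a mean of log2 7 or more. With arrays centred on the poly-A spikes added during labelling, which shifted the median of all genes to -0.08, 44 members were higher and 110 lower. The shares of all genes tested under that scaling are not given here. The shares above are no background for these counts, since the shift applied to every gene.

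On single arrays, the median intensity over the members was 9.05, 8.98 and 9.01 in DMSO and 8.90, 8.97 and 8.97 with teriflunomide. The DMSO arrays held the 3 higher medians. The lower quartile was 7.99 to 8.09 in DMSO and 7.82 to 7.86 with teriflunomide, and the upper quartile overlapped between the groups (9.99 to 10.08 and 10.02 to 10.15). Every teriflunomide array lay on one side of every DMSO array for 185 members (67.5%), 73 higher and 112 lower with teriflunomide. The background for this count was 67% of all genes tested, 33.9% higher and 33.1% lower, and 74.3% of genes with a mean of log2 7 or more, 37.3% higher and 37% lower. Change did not track level closely: Spearman's rho across the members between mean intensity and log2 fold change was 0.061, a description over genes that share the same 6 arrays.

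**Figure D1:**
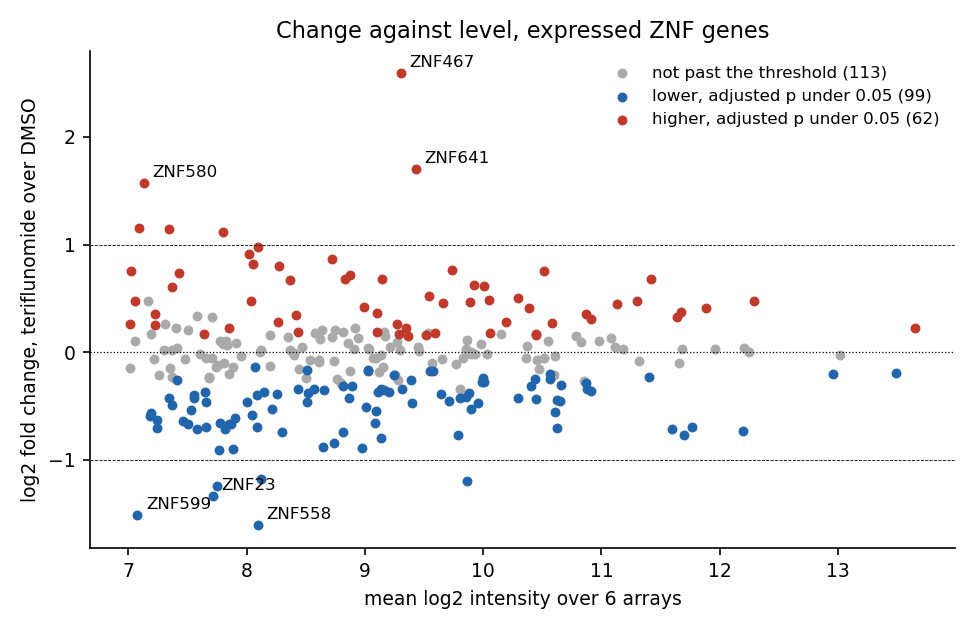
Log2 fold change of teriflunomide over DMSO (vertical axis) against mean log2 intensity over the 6 arrays (horizontal axis) for the 274 expressed ZNF genes, 1 point per gene, coloured by the limma call; dashed lines mark a 2-fold change. Of these genes 62 were higher and 99 lower, and ZNF467 at 2.59 and ZNF558 at -1.61 mark the ends.

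ZNF467, a C2H2 factor without a KRAB domain, rose most. Its log2 intensity was 8.03, 7.92 and 8.08 on the DMSO arrays and 10.72, 10.54 and 10.53 on the teriflunomide arrays. Every teriflunomide array was far above every DMSO array, a 6.02-fold difference (log2 fold change 2.59, SE 0.071, limma adjusted p = 2.41e-05). ZNF641, a KRAB member, stood at 8.69, 8.53 and 8.54 in DMSO and 10.26, 10.29 and 10.31 with teriflunomide. It rose by 1.70 (SE 0.052, limma adjusted p = 2.62e-05), and both of its other tested probe sets rose too, by 1.74 and 0.27. ZNF580, a small C2H2 protein gene, went from 6.05, 6.48 and 6.51 to 7.79, 8.04 and 7.91. Its DMSO arrays were the more spread, and the groups stayed apart by more than a log2 unit (1.57, SE 0.14).

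ZNF558, a KRAB member, fell most. Its intensity was 8.81, 8.94 and 8.95 in DMSO and 7.14, 7.49 and 7.25 with teriflunomide, a 3.05-fold difference (log2 fold change -1.61, SE 0.099, limma adjusted p = 0.000126). ZNF599, also of the KRAB class, went from 7.76, 7.86 and 7.89 to 6.28, 6.24 and 6.44. With teriflunomide its arrays all lay under the level of 7 that its mean over all arrays passed, and the change was -1.52 (SE 0.067). ZNF599 thus met the rule for members only through its DMSO arrays, so this fall is a description. ZNF23, a KRAB member on chromosome 16, went from 8.42, 8.46 and 8.29 to 7.11, 6.96 and 7.08, a change of -1.34 (SE 0.063). In each of these 3 genes all teriflunomide arrays were below all DMSO arrays.

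Promoters of the genes with the largest rise, the largest rise in the KRAB class and the largest fall are shown because short letter strings in them are counted further on. They come from RefSeq (GRCh38.p14) and run from 250 bases before to 50 bases after the annotated start, 5′ to 3′. ZNF467 is at chr7:149773539-149773838, minus strand, ZNF641 at chr12:48350870-48351169, minus strand, and ZNF558 at chr19:8832255-8832554, minus strand. Capitals mark CCGGAAG, the core letters of ETS factor sites, on either strand; of the 6 letter strings searched it was the only one found in these promoters.
ZNF467: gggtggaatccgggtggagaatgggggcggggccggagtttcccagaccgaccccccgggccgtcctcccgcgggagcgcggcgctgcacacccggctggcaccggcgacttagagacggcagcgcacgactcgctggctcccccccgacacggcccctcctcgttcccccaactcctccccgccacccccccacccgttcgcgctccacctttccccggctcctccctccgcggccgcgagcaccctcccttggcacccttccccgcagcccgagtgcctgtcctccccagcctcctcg
ZNF641: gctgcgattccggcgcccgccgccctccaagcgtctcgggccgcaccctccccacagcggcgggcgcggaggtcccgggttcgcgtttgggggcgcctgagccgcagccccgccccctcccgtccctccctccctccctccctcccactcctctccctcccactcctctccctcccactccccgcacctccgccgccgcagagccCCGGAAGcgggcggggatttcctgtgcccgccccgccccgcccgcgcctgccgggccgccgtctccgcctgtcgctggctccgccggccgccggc
ZNF558: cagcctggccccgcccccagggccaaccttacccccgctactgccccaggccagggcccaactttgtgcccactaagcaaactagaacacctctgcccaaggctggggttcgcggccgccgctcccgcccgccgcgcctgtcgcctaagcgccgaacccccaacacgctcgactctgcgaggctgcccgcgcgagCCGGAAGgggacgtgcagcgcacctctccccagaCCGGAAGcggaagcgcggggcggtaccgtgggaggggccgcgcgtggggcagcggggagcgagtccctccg
The ZNF467 promoter held none of the 6 strings, while those of ZNF641 and ZNF558 held CCGGAAG near the annotated start.

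The other 9 of the 12 largest rises ranged from 0.77 to 1.16. ZNF571 (KRAB) went from 6.52 ± 0.15 to 7.67 ± 0.14 (mean ± SD of 3 arrays each, log2, here and below), ZNF449 (SCAN) from 6.78 ± 0.10 to 7.92 ± 0.13 and ZNF844 (KRAB) from 7.24 ± 0.19 to 8.36 ± 0.032. With ZNF467, ZNF641 and ZNF580 these make up the 6 members that rose at least 2-fold. ZNF580, ZNF571 and ZNF449 had DMSO means under 7 and met the rule for members only through their teriflunomide arrays, so these rises are a description. ZNF709 rose by 0.97 (SE 0.044), ZNF548 by 0.91, ZNF585A by 0.87, ZNF586 by 0.82 and ZNF419 by 0.80, all KRAB members of chromosome 19. ZNF318, a large nuclear protein gene without KRAB or SCAN, rose by 0.77.

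Among the other 9 of the 12 largest falls, which ranged from -0.80 to -1.24, all but ZNF407 belong to the KRAB class. ZNF407 went from 8.37 ± 0.21 to 7.13 ± 0.13, ZNF850 from 10.46 ± 0.031 to 9.26 ± 0.094 and ZNF248 from 8.71 ± 0.089 to 7.53 ± 0.28. These 3 complete the 6 members that fell at least 2-fold, with ZNF599 among them as a description. ZNF600 changed by -0.91 (SE 0.10), ZNF141 by -0.90, ZNF43 by -0.89, ZNF621 by -0.88, ZNF689 by -0.84 and ZNF431 by -0.80. The ZNF600 and ZNF43 probe sets are of the kind that can cross-hybridise with relatives (_x_at), so their identity is uncertain. The probe sets of ZNF467, ZNF580, ZNF548, ZNF419, ZNF318 and ZNF23 are _s_at, a kind that can cross-hybridise with relatives too. All 24 of these rises and falls kept their direction and passed the threshold under every alternative setting in which the gene could be tested. Averaging the probe sets of a gene reduced ZNF844 to 0.57, ZNF548 to 0.58 and ZNF585A to 0.53.

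**Figure D2:**
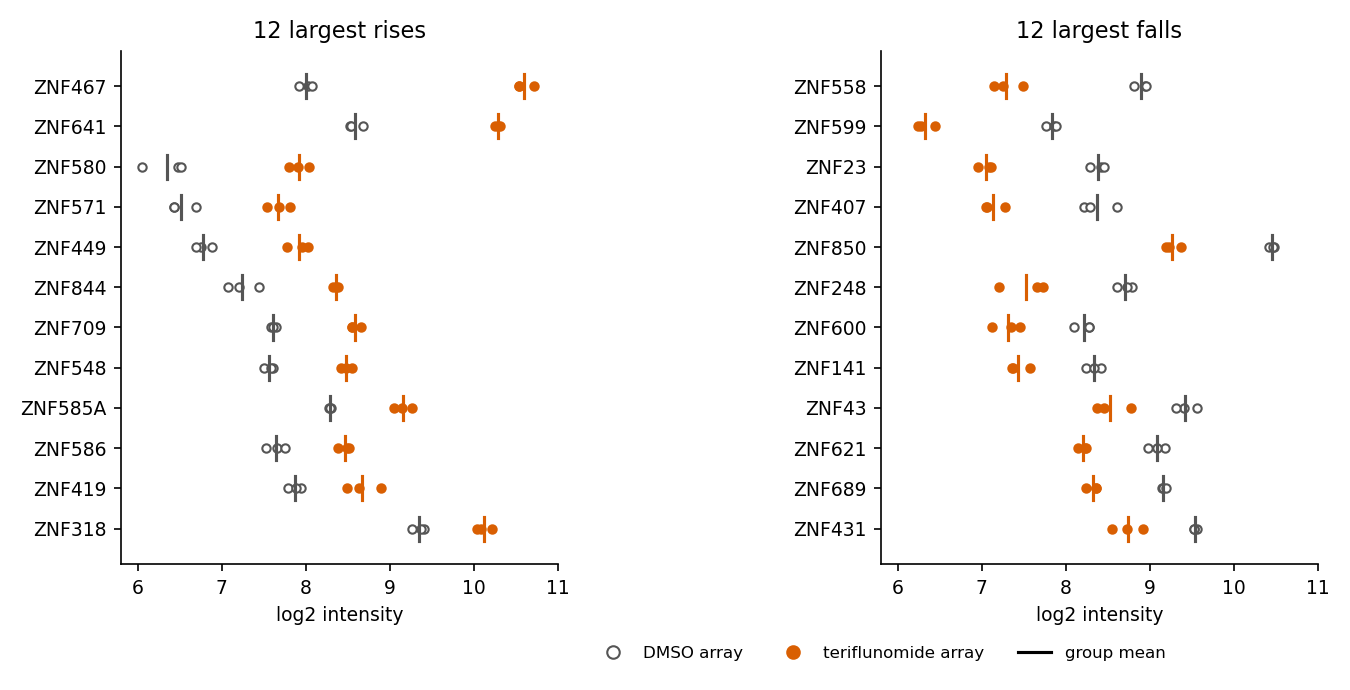
Log2 intensity on each array (horizontal axis) for the 12 expressed ZNF genes with the largest rises (left) and the 12 with the largest falls (right); open points are DMSO arrays, filled points teriflunomide arrays and bars group means (n = 3 per group). The groups do not overlap in any of these 24 genes, which were chosen for that; ZNF467 is furthest apart, at 7.92 to 8.08 against 10.53 to 10.72.

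Members were grouped by protein domain from general knowledge of each gene, a hand-made list that no file used here checks: 159 KRAB, 13 SCAN, 65 with neither and 37 left unclassed. Members with a SCAN domain were put in the SCAN class even where they also carry KRAB, as ZNF274 and ZNF445 do, so these classes are not separate kinds. Of the 159 KRAB members, 61 fell, 25 rose and 73 missed the threshold; their median log2 fold change was -0.07. Of the 65 members with neither domain, 25 fell and 20 rose, with a median of -0.076. Of the 13 SCAN members 5 rose, 1 fell and the median was 0.15. Among the unclassed, 12 rose and 12 fell. Beside the background of 28.9% lower and 29.7% higher over all genes tested, the KRAB class stood at 38.4% and 15.7% and the class with neither domain at 38.5% and 30.8%. Among genes with a mean of log2 7 or more, as all members have, 32.9% were lower and 33.3% higher. The difference between classes was not tested. Over all 18 alternative settings, between 47 and 68 KRAB members fell and between 18 and 32 rose, without the matching shares of all genes tested.

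**Figure D3:**
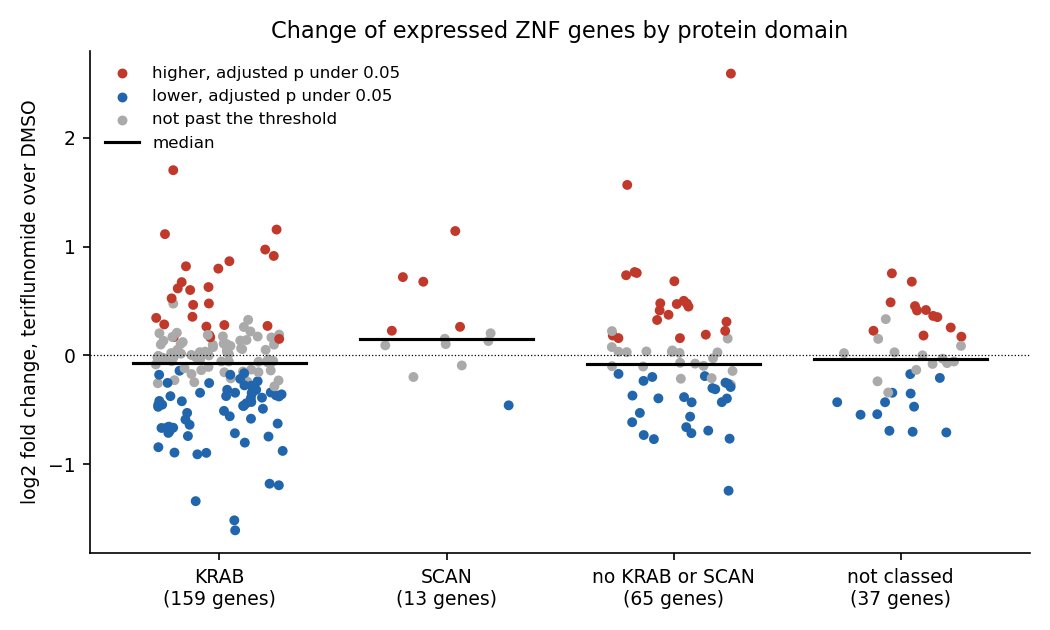
Log2 fold change of teriflunomide over DMSO (vertical axis) for each expressed ZNF gene, by hand-assigned protein domain (horizontal axis); points are genes coloured by the limma call, sideways scatter has no meaning, and bars are medians. The KRAB median is -0.07 and the SCAN median 0.15, and every class spans both directions.

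Within the KRAB class, ZNF91 and ZNF93 are known repressors of SVA and LINE elements. ZNF91 stood at 10.98, 10.99 and 10.81 in DMSO and 10.92, 11.04 and 11.13 with teriflunomide, overlapping between the groups (0.11, SE 0.076, limma adjusted p = 0.279). Another ZNF91 probe set, with a mean of 8.59, changed by -1.18, so the gene's direction is not settled. ZNF93 rose by 0.15 on its brightest probe set (limma adjusted p = 0.0317) and fell by 1.10 on a dimmer one. The rise did not pass without DMSO replicate 1, 2 or 3 or teriflunomide replicate 2 or 3 (0.13 to 0.17) or with centring on poly-A spikes. ZNF473, a KRAB protein of the histone pre-mRNA processing machinery, went from 9.26 ± 0.14 to 8.75 ± 0.11, a fall of 0.51 (SE 0.093).

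Of the SCAN members, ZNF449, ZNF274, ZNF496, ZNF445 and ZNF397 rose. ZNF274, known to bring SETDB1 to ZNF gene clusters themselves, went from 8.52, 8.57 and 8.47 to 9.32, 9.26 and 9.12, with no overlap between the groups (0.72, SE 0.062, limma adjusted p = 0.000354); a probe set with a plain suffix, which is the less open to shared probes, with a mean of 5.43 stood at 0.26 and did not pass. ZNF445, a regulator of imprinted genes, rose from 9.14, 9.16 and 9.12 to 9.41, 9.41 and 9.39. Its arrays were close together in each group, and a change of 0.26 passed (SE 0.027); it did not pass with centring on poly-A spikes (0.18) or averaged over its probe sets (0.13). ZNF496 rose by 0.68 (SE 0.048). ZNF397 rose by 0.23, a call lost under 10 of 18 settings, among them without DMSO replicate 2 or 3 or teriflunomide replicate 1, 2 or 3 (0.15 to 0.25), and it stood at -0.018 averaged over its probe sets. ZNF500 was the member that fell, by 0.46. ZNF496 and ZNF397 were chosen after their values were seen.

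The members with roles in ribosomes and RNA were followed by role. ZNF593, a factor of large ribosomal subunit assembly, went from 10.91, 10.97 and 11.16 to 10.72, 10.74 and 10.71 and fell by 0.29 (SE 0.069). ZNF622, of late large subunit maturation, fell by 0.20 and ZNF598, the ubiquitin ligase that senses collided ribosomes, by 0.31. Both falls were near the threshold (limma adjusted p = 0.0223 and 0.0297). The first did not pass without DMSO replicate 1 or 2 (-0.18 to -0.20), and the second without DMSO replicate 1 or 3 or teriflunomide replicate 1, 2 or 3 (-0.24 to -0.34). ZNF326, which links splicing to transcription elongation, moved further, from 12.02, 11.91 and 11.93 to 11.23, 11.32 and 11.17, a fall of 0.71 (SE 0.053) with no overlap. ZNF830, a splicing-associated protein gene, stood at -0.10 and ZNF638, a nuclear protein linked to silencing of unintegrated DNA, at 0.03; neither passed. A dimmer ZNF638 probe set rose by 0.40 and another stood at 0.89 without passing, and the mean of all of them passed at 0.34. ZNF207, a spindle assembly protein gene, went from 12.58, 12.57 and 12.53 to 11.74, 11.83 and 11.91 on an _x_at probe set, a fall of 0.73. Of its 8 tested probe sets 3 fell and 5 did not pass, and the brightest one with a plain suffix stood at -0.38 and did not pass. Averaged over its probe sets ZNF207 stood at -0.31.

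Several well-studied factors without KRAB or SCAN did not pass the threshold. ZNF143, a promoter-binding activator, stood at 9.62, 9.65 and 9.78 in DMSO and 9.67, 9.52 and 9.65 with teriflunomide. Its groups overlapped (-0.068, SE 0.062, limma adjusted p = 0.383). Its relative ZNF76 stood at -0.21, ZNF281 at -0.10, ZNF384 at -0.10, ZNF217 at 0.034 and ZNF148 at -0.076, and none passed on its brightest probe set. The SEs of those probe sets were 0.042 to 0.14, so on them changes of a 2-fold size lay far outside the spread. Dimmer ZNF148 probe sets changed by 0.48, -0.18 and -0.58 and passed, so its direction is not settled. Of 4 neural and progenitor factors, 2 fell, 1 rose and 1 did not pass. ZNF423, a partner of EBF factors with a known part in neuroblastoma differentiation, went from 10.29, 10.02 and 10.16 to 9.70, 9.70 and 9.49, a fall of 0.53 (SE 0.093). The related ZNF521 fell by 0.40. ZNF711, an X-linked intellectual disability gene, rose by 0.37, a call lost on averaging its probe sets (0.30), and ZNF804A, a neuronal gene, stood at 0.046 and did not pass. ZNF451, a SUMO ligase, rose by 0.45 on its brightest probe set and fell by 0.20 on another bright one, so its direction is not settled.

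Of the 5 members with the highest intensities, 2 rose, 2 fell and 1 did not pass, all by less than 0.5 on their brightest probe sets; intensities of different probe sets do not rank transcripts by abundance. ZNF664 rose by 0.23 (0.14 and not past the threshold with centring on poly-A spikes, 0.74 averaged over its probe sets), ZNF330, a nucleolar protein gene, rose by 0.47 (0.23 and not past the threshold averaged over its probe sets), ZNF121 changed by -0.21 and ZNF146 by -0.19, and ZNF639 stood at -0.026 without passing. ZNF146 stood at -0.33 averaged over its probe sets, and its call was lost without DMSO replicate 1 or 2 or teriflunomide replicate 2 or 3 (-0.15 to -0.20). The smallest changes were those of ZNF101 (8.08, 8.16 and 8.11 in DMSO, 8.0, 8.07 and 8.28 with teriflunomide), ZNF738 and ZNF764. ZNF101 is a KRAB member whose group means were equal to 2 decimals. Just inside the cut-off lay ZNF574, ZNF530 and ZNF865, each with a mean of 7.01 to 7.03, and just outside it ZNF175, ZNF775 and ZNF528, each with a mean of 6.98 to 6.999. In DMSO 7 members had a group mean under 7, and with teriflunomide 6. Among the 261 members with both group means at 7 or more, 56 were higher and 94 lower, 3 and 5 of them at least 2-fold. Of all genes with a mean of log2 7 or more, 33.3% were higher and 32.9% lower, and 4.42% and 3.68% at least 2-fold. That background asks only for the mean over all arrays to reach 7, a looser rule.

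Of the 274 members, 122 lie on chromosome 19 and the rest on 19 other chromosomes (RefSeq, GRCh38.p14, used for order and chromosome only). On chromosome 19, 44 members fell and 23 rose, and elsewhere 55 of 152 fell and 39 rose. Chromosome 16 held 16 members, of which 9 fell and none rose at the threshold of limma; at an unadjusted p under 0.05 the count was 9 lower and 1 higher (ZNF174, 0.20 on its brightest probe set, while a dimmer one fell by 2.36). Over all genes tested 28.9% were lower and 29.7% higher, and among genes with a mean of log2 7 or more 32.9% and 33.3%. Chromosome 16 was picked for its counts. The 9 that fell were ZNF23, ZNF689, ZNF423, ZNF747 (-0.49), ZNF500, ZNF48 (-0.43), ZNF200 (-0.35), ZNF598 and ZNF629 (-0.17). The ZNF48 call was lost without teriflunomide replicate 2 or 3 (-0.37 to -0.41), and that of ZNF629 without DMSO replicate 1 or 3 or teriflunomide replicate 1 or 3 (-0.14 to -0.17). Averaging the probe sets put ZNF747 at -0.31 and ZNF200 at -0.19. These genes and the runs below were chosen after their values were seen.

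Of 138 pairs of members next to each other among ZNF symbols, 18 fell together, 10 rose together, 24 moved in opposite directions and 86 had 1 or both below the threshold. These are counts of pairs. The 36.1% of members that fell and the 22.6% that rose are shares of single genes and no direct background for them. No test of neighbours was made, so the counts do not show whether neighbours moved together. Where no protein-coding gene lay between them, 11 of 77 pairs fell together, 4 rose together and 9 were opposed. On chromosome 19 the consecutive members ZNF579, ZNF865, ZNF581 and ZNF580, none of them in the KRAB list, all rose, by 0.74, 0.75, 0.68 and 1.57. ZNF865 and ZNF580 had DMSO means of 6.65 and 6.35 and met the rule for members only through their teriflunomide arrays. This run is therefore a description. On chromosome 7 the adjacent ZNF680, ZNF107, ZNF138 and ZNF273 fell, by 0.44, 0.70, 0.25 and 0.46, while ZNF736 beside them rose by 0.28 (0.20 and not past the threshold with centring on poly-A spikes). Of these 4 falls, 3 rest on _x_at probe sets, which relatives in the cluster may share. The ZNF138 call was lost without DMSO replicate 1 or 2 or teriflunomide replicate 1 or 2 (-0.20 to -0.24). On chromosome 10, ZNF248 and ZNF25 fell by 1.18 and 0.66, whereas the next 3 members, ZNF33A, ZNF37A and ZNF33B, stood at 0.10 to 0.17 and did not pass.

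**Figure D4:**
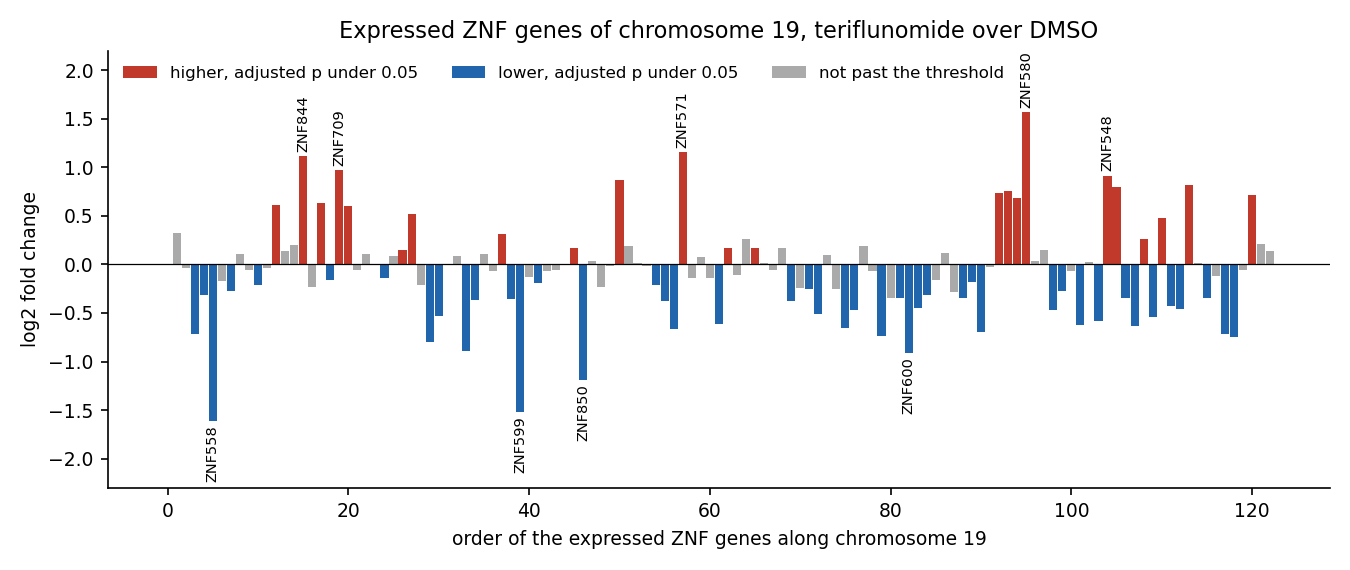
Log2 fold change of teriflunomide over DMSO (vertical axis) for the 122 expressed ZNF genes of chromosome 19 in their order along it (horizontal axis, a rank without distance); bars are genes coloured by the limma call, and genes past 0.9 in size are named. No rise lies between ZNF222 and ZNF579, a stretch picked after the values were seen, and the placement of the 23 rises and 44 falls was not tested. ZNF558 (-1.61) and ZNF580 (1.57) are the furthest from 0.

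Of the 274 members, 235 had a promoter in the RefSeq table. The ETS core letters CCGGAAG, on either strand, were in 99 of these (42.1%), beside 19.6% of the promoters of all genes tested, 14.2% of all protein-coding promoters and 10.7% of all promoters of this length. The share was 42.6% among the tested ZNF symbols under the cut-off and 41.3% among other C2H2 families (ZBTB, ZSCAN, ZKSCAN and ZFP symbols by the same rule), so it was not particular to the expressed ZNF genes. It was 46.5% in the KRAB class, 63.6% in the SCAN class (11 promoters) and 30.2% in the class with neither domain. By response it was 51.2% for members that fell, 38.2% for those that rose and 36.5% for those that did not pass, beside 22%, 17.9% and 19.1% over all genes tested. Put the other way, 43 of 99 members with the letters fell and 21 rose, and 41 of 136 without them fell and 34 rose (43.4% and 21.2%, against 30.1% and 25%). Over all genes tested, 32.8% of those with the letters were lower and 27.6% higher, against 28.3% and 30.8% of those without. Of the matches in the members, 84.5% lay between 100 bases before and 50 after the annotated start, beside 73.4% over all genes tested. A match is a description of these letters and no evidence of a bound factor.

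**Figure D5:**
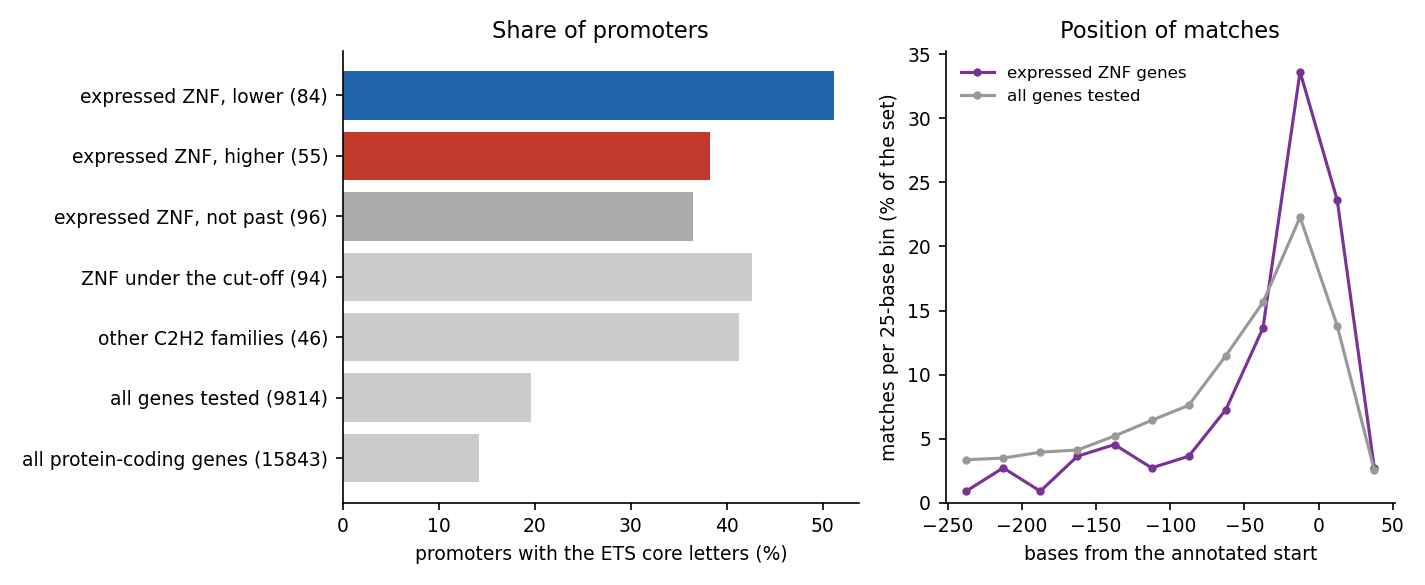
Left, share of RefSeq promoters with the ETS core letters (horizontal axis, percent) in each set of genes, with the number of promoters in brackets; right, position of the matches from the annotated start in bins of 25 bases (horizontal axis, bases) as percent of the matches of the set (vertical axis). The share is 51.2% for expressed ZNF genes that fell, 38.2% for those that rose and 19.6% for all genes tested, and matches of both sets are most frequent just before the start.

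The other strings searched, on both strands, were rarer. TGATGNAA, the core of the ATF4-CHOP element, was in 1 of the 235 member promoters (0.426%) beside 1.61% of all genes tested and 3.67% of all promoters. TGACGTCA, the cyclic AMP response element, was in 3.83% beside 3.41% and 1.98%, CACGTG, the E-box, in 6.38% beside 10.5% and 7.43%, and the NRF1 site in 2.13% beside 2.45% and 1.36%. TGACNNNGC, the antioxidant response element core, was in 14.9% beside 15.3% and 13.6%. It was in 7.27% of the promoters of members that rose (4 of 55), 20.2% of those that fell (17 of 84) and 14.6% of those that did not pass, beside 16%, 15.2% and 14.9% over all genes tested. Gene length showed a weak relation with change, with a Spearman's rho of -0.13 across the members and -0.12 across all genes tested, a description over genes on the same arrays.

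Probe sets of a member did not always move alike. The members had 641 probe sets, 523 of which passed the filter on dim values. Adjusted over the 27290 probe sets tested, of which 23.7% were higher and 25.2% lower, 160 members had 2 or more tested probe sets and 12 of these had probe sets called in opposite directions. Among the 84 with 2 or more probe sets at a mean of log2 7 or more, 27 had all of them called the same way and 4 had opposed calls (ZNF148, ZNF26, ZNF451 and ZNF592). Among the 12 members with opposed calls, the gap was widest in ZNF346, a double-stranded RNA-binding protein gene, where the brightest probe set stood at 0.15 and did not pass and dimmer ones changed by 1.39 and -0.54. ZNF782 (-0.59 and 1.02), ZNF880 (-0.74 and 0.82) and ZNF789 (-0.39, with 3 others from 0.57 to 1.06) fell on the brightest probe set and rose on dimmer ones, so their directions are not settled. ZNF782 had a teriflunomide mean of 6.89 and met the rule for members only through its DMSO arrays. Of the probe sets that stand for the members, 198 have a plain suffix, 42 are _s_at, 31 _x_at and 3 _a_at. Of the 31 _x_at ones, 12 fell and 4 rose.

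The machinery that KRAB proteins recruit was followed in 3 lists. Of 14 genes of TRIM28 and its direct partners, 11 were tested; 6 fell, 2 rose and the median log2 fold change was -0.25, where 28.9% of all genes tested were lower and 29.7% higher. TRIM28 went from 10.30, 10.09 and 10.32 to 10.08, 9.95 and 9.93, groups that did not overlap, and fell by 0.25 (SE 0.08, limma adjusted p = 0.0403). That call was lost without DMSO replicate 1 or 3 or teriflunomide replicate 2 or 3 (-0.21 to -0.23). SETDB1 rose by 0.29 (limma adjusted p = 0.0286), a call lost without DMSO replicate 1, 2 or 3 or teriflunomide replicate 1 (0.28 to 0.31) and with centring on poly-A spikes (0.21). ATF7IP, the partner that stabilises SETDB1, rose from 11.09 ± 0.064 to 11.74 ± 0.10, by 0.65 (0.37 averaged over its probe sets). The chromatin remodeller SMARCAD1 fell by 0.82 (SE 0.061), the heterochromatin protein gene CBX3 by 0.47 and UHRF1, which guides maintenance DNA methylation, by 0.47. ATRX fell by 0.31 and the histone chaperone gene DAXX by 0.27. CBX3 stood at -0.93 on a plain-suffix probe set, and averaging the probe sets put ATRX at -0.18 and SETDB1 at 0.48.

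Of the 13 genes of the NuRD deacetylase complex, all tested, 4 fell, 3 rose and the median was -0.11; these shares, 30.8% and 23.1%, lie near the 28.9% and 29.7% of all genes tested. HDAC1 fell by 0.44, MBD3 by 0.45 (-0.23 averaged over its probe sets), MBD2 by 0.36 and RBBP4 by 0.21, while MTA3 rose by 0.91, CHD3 by 0.39 and MTA1 by 0.21. The MTA3 and RBBP4 directions are not settled, since probe sets with a plain suffix gave -1.35 and 0.030. CHD3 did not pass on such a probe set (0.18), nor MTA1 averaged over its probe sets (0.17) or with centring on poly-A spikes (0.13). Of the 4 HUSH complex genes, which silence retroelements, PPHLN1 fell by 0.49 and MORC2 by 0.30, TASOR rose by 0.29 and MPHOSPH8 stood at -0.091 without passing. The MORC2 call was lost without DMSO replicate 1 or 2 or teriflunomide replicate 1 (-0.27 to -0.30), and averaging the probe sets put TASOR at -0.034 and MORC2 at -0.45. Beside these, 24 of 52 genes of the other C2H2 families rose and 14 fell, with a median of 0.11; the difference from the ZNF genes was not tested. The 111 tested ZNF symbols under the cut-off had 20 rises and 21 falls.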

How the data were processed

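Total RNA of 3 DMSO and 3 teriflunomide samples was measured on Affymetrix HG-U133 Plus 2.0 arrays. The deposited values are log2 intensities per probe set, which the authors obtained through GCRMA, per the submitters' processing notes. Version and options: not given in the sources used here. That method makes the distributions of the arrays alike and can hide a change shared by all genes. The deposited values were close without being one distribution, with array medians of 2.63 to 2.66 and upper quartiles of 7.87 to 7.92. The number of arrays limits the precision. The platform annotation named 41091 probe sets by a single symbol, leaving out 62 controls. Testing required a value no lower than the array median on 3 or more of the 6 arrays (27290 probe sets passed), and the brightest stood for its gene (11998 genes). The treatment effect was fitted by limma 3.58.1 (R 4.3.3; lmFit, eBayes, no covariates), two-sided, with Benjamini-Hochberg adjustment over all genes and a threshold of 0.05; control probe sets by exact permutation. The fit was tested on simulated data. Tables and figures used Python 3.11.15.

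The members and lists were chosen with earlier results of these data known. Genes named were the 12 largest rises and falls with no overlap between groups, the extremes per class, the 5 brightest, the 3 smallest changes, the 3 on either side of the cut-off, the 6 widest gaps among members with opposed probe set calls, members of known role, and others marked as chosen after their values were seen. Domain classes were to be read from protein sequences, which were not analysed here; they were assigned by hand. Alternatives were other filters, scalings, probe set choices, eBayes settings, array weights, a replicate block, floors, cut-offs and each array left out.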

Additional observations from a re-analysis of the deposited data

Results flagged for a closer look

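Probe sets assigned to several symbols stood outside the gene comparison. Of 39 tested ones with a ZNF symbol among them, 7 were higher and 14 lower with teriflunomide (limma, adjusted over 27290 probe sets). Over all 27290 probe sets, 23.7% were higher and 25.2% lower. The shares of all probe sets that changed at least 2-fold are not given here. At least 2-fold, 1 was higher: the probe set shared by TCF12-DT and ZNF280D, from 6.498 to 8.44, a log2 fold change of 1.94. At least 2-fold, 1 was lower: the one shared by ZNF729 and ZNF43, from 10.45 to 9.39, a change of -1.06. The member ZNF43 fell by 0.89 on its own probe set. Both of these are _x_at probe sets, which relatives may share, so the falls are not independent of each other.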

How the results depend on the processing

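With each array left out in turn, 52 to 57 members were higher and 84 to 95 lower, 6 were higher and 6 to 7 lower at least 2-fold, 21 to 27 KRAB members were higher and 51 to 61 lower, and 15 to 19 members with neither domain were higher and 19 to 23 lower. Of the 161 member calls, between 121 and 161 were made in the same direction under each of the 18 alternatives; the lowest number, 121, came with plain-suffix probe sets only, which held 228 of the members. With a filter at the 75th percentile 3 members were at least 2-fold higher, since fewer members (215) were tested. With a member cut-off of log2 8, 2 were at least 2-fold higher and 3 lower. With only members whose group means both reached the cut-off, chosen after seeing the data, 3 were at least 2-fold higher. With plain-suffix probe sets only, 12 members with neither domain were higher. With the replicate number as a block (replicate block), 54 members were higher and 92 lower, and 140 of the 161 calls were kept; same-numbered replicates did not deviate together in every pair (r = 0.13, 0.15 and -0.045), so the numbers were not taken to pair the samples. Centring on poly-A spikes, chosen after seeing the data, gave 44 higher and 110 lower, while it shifted every gene downward. The matching shares of all genes tested are not given for any alternative here, so these member counts stand without a background.

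Directions turned over with other probe sets. As the mean of the probe sets, ZNF530 came out at -0.061, ZNF782 at 0.22, ZNF880 at 0.037, ZNF789 at 0.46, ZNF93 at -0.36, ZNF91 at -0.54, ZNF397 at -0.018, MTA3 at -0.22 and TASOR at -0.034. With a plain suffix preferred, or only such probe sets, ZNF451 stood at -0.20, MTA3 at -1.35 and RBBP4 at 0.030. The cause was not tested. Over the 97 genes named, 1610 of 1711 values kept direction and call. The split of KRAB and SCAN classes by protein template was not run. Dim probe sets limit what the disagreements show.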
